A study of Mus musculus with 6 samples.

Results

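Transcripts of 9 genes that mark the endothelium of mouse liver were measured in livers making a simian virus 40 T antigen and in wild-type liver. The genes were Tek, Cdh5, Kdr, Flt1, Eng, Pecam1, Stab1, Stab2 and Lyve1. They were found as every probe set (a group of short array probes for 1 transcript) whose only listed gene symbol was 1 of these names. This gave 15 probe sets, 14 on the 430A array design and 1 on 430B, of 35067 probe sets with 1 symbol, and 9 genes of 18194.

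The data were 6 Affymetrix expression arrays of liver RNA, 1 array of each of the 2 designs for each of 3 genotypes. The LT mice carried the transgenes named ApoErtTA:TRE2-TAg and were induced to make large T antigen with small t antigen. The 17kT mice carried transgenes of the same name in the sample titles, though their genotype label reads ApoErtTA:TRE2-TA, and were induced to make the 17kT protein with small t. The wild-type (WT) mice carried no transgene. All mice, WT included, were males on the hybrid B6SJL background, 32 to 37 days old, that drank water with 25 µg/ml doxycycline and 2.5% sucrose for 4 days. The rtTA protein, a doxycycline-dependent activator, was absent from WT livers, so its effect cannot be told apart from that of the viral proteins. The series describes the expression as specific to liver and conditional. The labels do not say if an RNA sample was pooled over animals.

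Liver sinusoids are lined by a specialised endothelium with open pores and no continuous basement membrane, which filters plasma and clears waste molecules from blood. Tek (also called Tie2), Kdr and Flt1 are receptors for secreted vascular growth factors, Eng is a co-receptor of the TGF-beta and BMP family, and Cdh5 and Pecam1 hold endothelial cells together. Stab1, Stab2 and Lyve1 are receptors that are abundant in the liver sinusoid and bind hyaluronan or other circulating ligands.

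Promoter sequences are shown for 3 genes whose signal was below WT in both transgenic livers (Tek, Eng and Kdr) and for Stab1, whose signal was close to WT in both. These groupings hold for the scaling used here. They come from the RefSeq table of the GRCm38.p6 build and run 5′ to 3′ on the gene's strand, covering 250 bases before to 50 bases after the transcription start. Capitals mark matches on either strand to 3 short motifs. The letters CAGGAA are of the kind bound by ETS family factors. The letters AGATAA are of the kind bound by GATA family factors. The letters AACAAT are of the kind bound by SOX family factors. The Tek window is chr4:94739039-94739338 on the plus strand, Eng is chr2:32646345-32646644 on the plus strand, Kdr is chr5:75978406-75978705 on the minus strand and Stab1 is chr14:31168592-31168891 on the minus strand.
Tek: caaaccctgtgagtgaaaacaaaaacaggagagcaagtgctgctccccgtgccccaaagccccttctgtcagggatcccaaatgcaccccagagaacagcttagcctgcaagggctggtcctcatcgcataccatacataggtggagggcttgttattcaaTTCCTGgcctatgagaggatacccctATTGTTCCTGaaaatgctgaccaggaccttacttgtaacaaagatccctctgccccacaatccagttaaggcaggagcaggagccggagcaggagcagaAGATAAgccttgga
Eng: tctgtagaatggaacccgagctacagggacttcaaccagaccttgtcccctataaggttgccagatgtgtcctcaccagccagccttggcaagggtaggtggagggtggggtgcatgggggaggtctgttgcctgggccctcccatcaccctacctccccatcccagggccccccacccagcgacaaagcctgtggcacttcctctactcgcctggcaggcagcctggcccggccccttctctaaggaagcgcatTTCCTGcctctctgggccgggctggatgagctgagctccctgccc
Kdr: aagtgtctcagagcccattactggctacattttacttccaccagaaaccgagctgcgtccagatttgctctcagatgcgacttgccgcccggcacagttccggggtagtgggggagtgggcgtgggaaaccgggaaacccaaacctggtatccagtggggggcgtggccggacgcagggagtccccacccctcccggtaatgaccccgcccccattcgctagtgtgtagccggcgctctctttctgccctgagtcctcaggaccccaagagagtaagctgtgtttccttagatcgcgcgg
Stab1: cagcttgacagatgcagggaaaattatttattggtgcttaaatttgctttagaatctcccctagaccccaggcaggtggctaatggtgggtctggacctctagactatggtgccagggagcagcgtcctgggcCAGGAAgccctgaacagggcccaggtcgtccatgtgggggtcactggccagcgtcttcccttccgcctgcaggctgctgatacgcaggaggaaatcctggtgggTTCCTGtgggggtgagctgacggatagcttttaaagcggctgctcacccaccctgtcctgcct

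The table held promoters for 6 of the 9 genes, which were Tek, Kdr, Flt1, Eng, Stab1 and Stab2. The ETS type motif was present in 4 of these 6 (Tek, Eng, Stab1 and Stab2), against 30.6% of all 32851 promoters of the same length. Tek held 2 matches and was the only one of the 6 with the GATA type motif (11.2% of all promoters) or with the SOX type motif (10.7%). The SOX type match of Tek overlaps its ETS type match nearer to the start. Kdr and Flt1 held none of these letters in this window. Both Stab1, close to WT, and Eng, below WT, held the ETS type motif. With 6 promoters and exact matches only, this cannot say if such motifs go with the signal.

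Signals are linear intensities in arbitrary units that the authors had already scaled to a common mean. Signals at or below the median of all probe sets of a design (90.4 on 430A and 140.5 on 430B) were set to that floor before a ratio was taken. A probe set at the floor on 1 of the 2 arrays compared therefore gives a bound, and one at the floor on both gives no value. With 1 array per genotype and design there is no spread between animals and no test is possible, so a probe set was called different at a fixed size of at least 2-fold, which is 1 on the log2 scale. The only error these arrays give is technical. Over 100 probe sets present on both designs, the log2 ratio had an SD of 0.23 (LT against WT), 0.28 (17kT against WT) or 0.26 (LT against 17kT), and between different probes of 1 gene the SD was 0.51, 0.49 and 0.43 in that order of comparisons. Of the 100, 98 were above the floor in both designs in each comparison with WT. Ratios on 430A were offset from those on 430B by a median of -0.25, 0.19 and -0.36, in the same order, so values that mix designs carry this offset. Neither SD says anything of the spread between animals.

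From 47.0% to 52.0% of probe sets were above the floor on each array. The 3′ to 5′ signal ratio of Gapdh, a sign of RNA integrity or labelling length, was 3.08 and 3.16 in LT and 3.53 and 2.85 in 17kT livers, against 5.81 and 6.04 in the WT liver (430A, then 430B). The same ratio for beta-actin was 2.52 and 2.50 in LT and 2.13 and 1.72 in 17kT, against 2.57 and 2.29 in WT. Beta-actin thus did not set WT apart from LT as Gapdh did. Fluidics station 2 served the LT arrays and station 1 those of 17kT and WT, so station and LT cannot be told apart. The 17kT values were deposited with up to 6 decimals and the others with 1. Any difference in how the 17kT arrays were handled cannot be told apart from the 17kT genotype. The part of any of these in the results below was not tested. The hepatocyte marker albumin (Alb) had signals of 23851 in the LT liver, 18262 in the 17kT liver and 28283 in the WT liver, and 8 of the 9 endothelial genes had at least 1 probe set above the floor in all 3 livers. Flt1 was the exception.

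Tek, Cdh5 and Eng were at least 2-fold lower in the LT liver than in the WT liver, and Cdh5 and Eng were so in the 17kT liver as well, for Cdh5 and Eng on the brighter of their probe sets. Lyve1 stood on the other side, at 2.01-fold higher in the 17kT liver. Kdr and Stab2 were below WT in both transgenic livers by less than 2-fold. Stab1 and Pecam1 stayed within 1.43-fold of WT on the scaling used here. In bulk liver RNA, fewer endothelial cells and less of a transcript per cell cannot be told apart.

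Of the 15 probe sets, 12 were above the floor on at least 1 array of the LT and WT pair. In that comparison 3 were called lower and 0 higher, where the same rule called 8.21% of all probe sets lower and 10.6% higher. In 17kT against WT, again with 12 measured, 2 were called lower and 1 higher, where the rule called 7.7% lower and 9.48% higher. In LT against 17kT, 11 were measured and 0 were called in either direction, against 4.24% higher and 4% lower among all probe sets. On 430A, which held 10 of the 11, the rule called 2.32% of all probe sets higher and 2.46% lower. The shares called lower against WT were above the background shares, from counts of 3 and 2 probe sets. The members were chosen with earlier results of these data known, and both comparisons share the WT arrays. No conclusion is therefore drawn from these shares. Scaling to the hybridisation controls, or using the floor as a pseudocount, left no member called lower in either comparison.

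**Figure D1:**
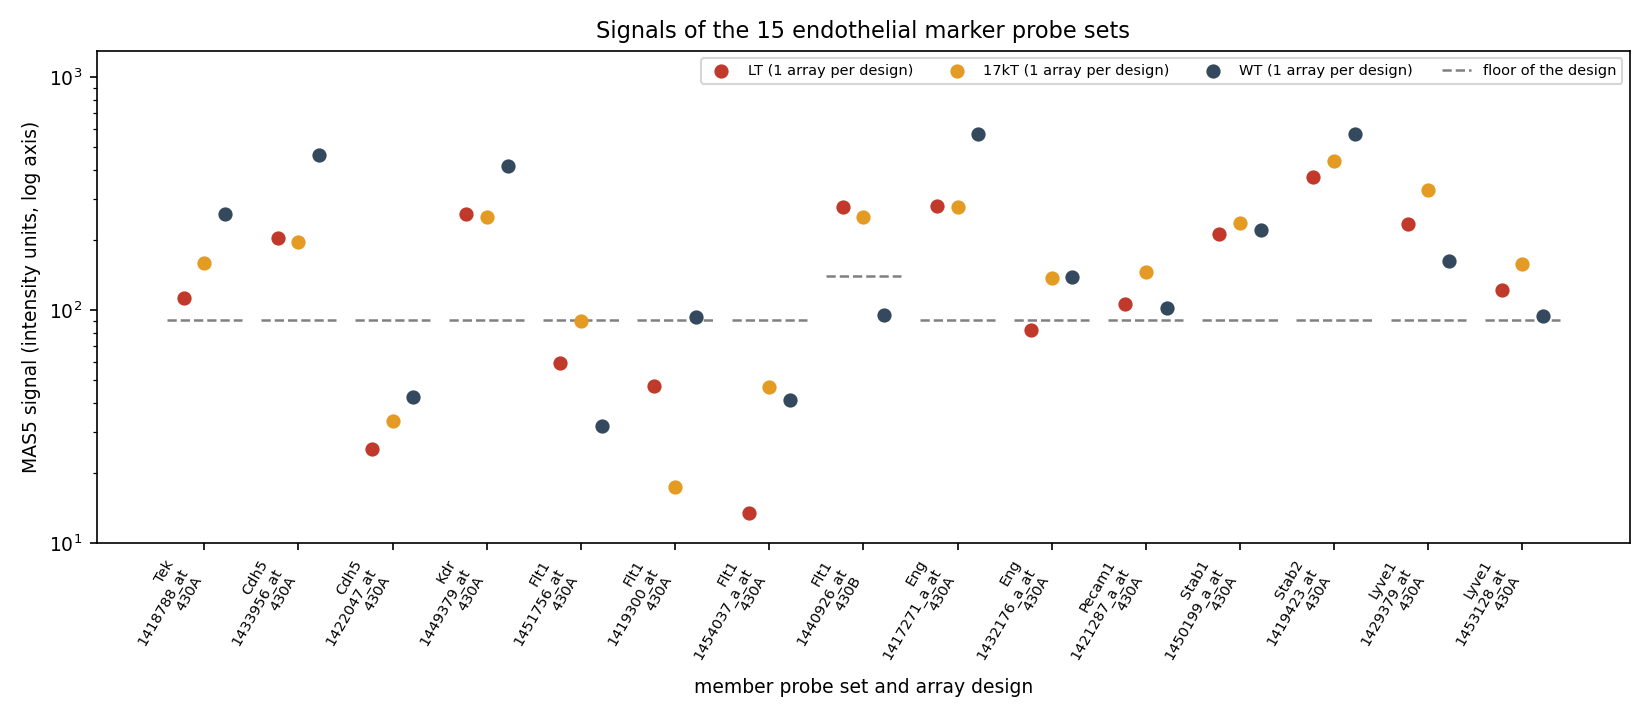
Signal intensity (log axis, arbitrary units) of each member probe set in the LT, 17kT and WT livers, 1 point per array, with the floor of the design as a dashed line. The main probe sets of Tek, Cdh5, Kdr, Eng and Stab2 have their WT point highest, and both Lyve1 probe sets have it lowest.

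Tek, the receptor of the angiopoietins and a regulator of vessel quiescence, gave signals of 112 in the LT liver and 159 in the 17kT liver, against 259 in the WT liver (1418788_at, chromosome 4). The order was LT below 17kT below WT. Tek was 2.31-fold lower in LT (log2 ratio -1.21) and 1.62-fold lower in 17kT (-0.70) than in WT. The LT value lay close to the floor of 90.4, so little room was left below it. The LT signal of Tek was 1.42-fold below that of 17kT, a log2 difference of -0.51.

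Cdh5, or VE-cadherin, the adhesion protein of endothelial adherens junctions, had signals of 204 in LT and 196 in 17kT, against 463 in WT, on its brighter probe set (1433956_at, chromosome 8). Both transgenic livers were low and nearly level with each other. Cdh5 was 2.27-fold lower in LT (log2 ratio -1.18) and 2.36-fold lower in 17kT (-1.24) than in WT, and LT and 17kT differed by 0.06. The other probe set, 1422047_at, was below the floor in all 3 livers, at 25.2 in LT, 33.5 in 17kT and 42.1 in WT, so it gives no check of the first.

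Kdr (VEGFR2), the main signalling receptor for VEGF-A in endothelium, had signals of 259 in LT and 250 in 17kT, against 417 in WT (1449379_at, chromosome 5). Its pattern was that of Cdh5 at a smaller size. Kdr was 1.61-fold lower in LT (log2 ratio -0.68) and 1.67-fold lower in 17kT (-0.74), which did not reach 2-fold. LT and 17kT differed by 0.05.

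Flt1 (VEGFR1) binds VEGF-A with high affinity and, in a soluble form, can withhold it from Kdr. It was the least well measured of the genes, with 4 probe sets (chromosome 5). On 430A, 1451756_at had 59.0 in LT, 89.9 in 17kT and 31.9 in WT, all below the floor. Likewise 1454037_a_at had 13.4 in LT, 46.7 in 17kT and 40.9 in WT. The remaining one, 1419300_at, had 47.1 in LT and 17.3 in 17kT, against 93.2 in WT, which is just above the floor. These 3 probe sets therefore give no order of the livers. The 430B probe set 1440926_at went the other way from Kdr, with 277 in LT and 251 in 17kT, against 95.4 in WT. Since the WT signal lay below the 430B floor of 140.5, Flt1 was at least 1.97-fold higher in LT and at least 1.79-fold higher in 17kT here. These bounds did not reach the 2-fold rule, so the probe set was not called, but the ratios themselves may be larger. It was past 2-fold under 4 of 7 other settings in LT and under 1 of 7 in 17kT. That 1 setting, a floor at the 25th percentile, also put 1419300_at past 2-fold lower in 17kT, at -1.79. Flt1 thus has no reading shared between probe sets.

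Eng, or endoglin, the co-receptor through which endothelium senses BMP9, had signals of 281 in LT and 278 in 17kT, against 570 in WT, on 1417271_a_at (chromosome 2). Both transgenic livers were again low and level with each other. Eng was 2.03-fold lower in LT (log2 ratio -1.02) and 2.05-fold lower in 17kT (-1.03), just past the 2-fold rule. Its dimmer probe set, 1432176_a_at, had 82.4 in LT and 137 in 17kT, against 138 in WT. There LT was at least 1.53-fold lower, while 17kT was level with WT (log2 ratio -0.01), so the 2 Eng probe sets disagreed about 17kT.

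Pecam1 (CD31), an adhesion protein of endothelial junctions that platelets and leukocytes also carry, had signals of 106 in LT and 146 in 17kT, against 102 in WT (1421287_a_at, chromosome 11). The LT and WT livers were close together and near the floor, and 17kT was the highest. The log2 ratio was 0.06 in LT and 0.52 in 17kT. The LT ratio lies inside the technical SD and was -0.19 when scaled to the shared probe sets.

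Stab1, a scavenger receptor of sinusoidal endothelium and of some macrophages, had signals of 213 in LT and 237 in 17kT, against 222 in WT (1450199_a_at, chromosome 14). The log2 ratios were -0.06 in LT and 0.10 in 17kT, both inside the technical SD. Stab2, the related receptor that clears hyaluronan from blood, had signals of 374 in LT and 437 in 17kT, against 571 in WT (1419423_at, chromosome 10). Stab2 kept the order LT, 17kT, WT that Tek showed, but was only 1.53-fold lower in LT (log2 ratio -0.61) and 1.31-fold lower in 17kT (-0.39).

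Lyve1, a hyaluronan receptor of sinusoidal and lymphatic endothelium, was measured by 2 probe sets that share a source sequence (chromosome 7). The brighter, 1429379_at, had 234 in LT and 326 in 17kT, against 162 in WT. The other, 1453128_at, had 122 in LT and 158 in 17kT, against 94.3 in WT. Both put 17kT highest and WT lowest. On the brighter probe set Lyve1 was 1.44-fold higher in LT (log2 ratio 0.53) and 2.01-fold higher in 17kT (1.01), and on the other it was 1.29-fold higher in LT (0.37) and 1.67-fold higher in 17kT (0.74). The call of Lyve1 in 17kT rests on a value at the edge of the rule and was met under 3 of 8 other settings. Among those 3 were the signals as deposited, which nearly repeat the main scaling.

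**Figure D2:**
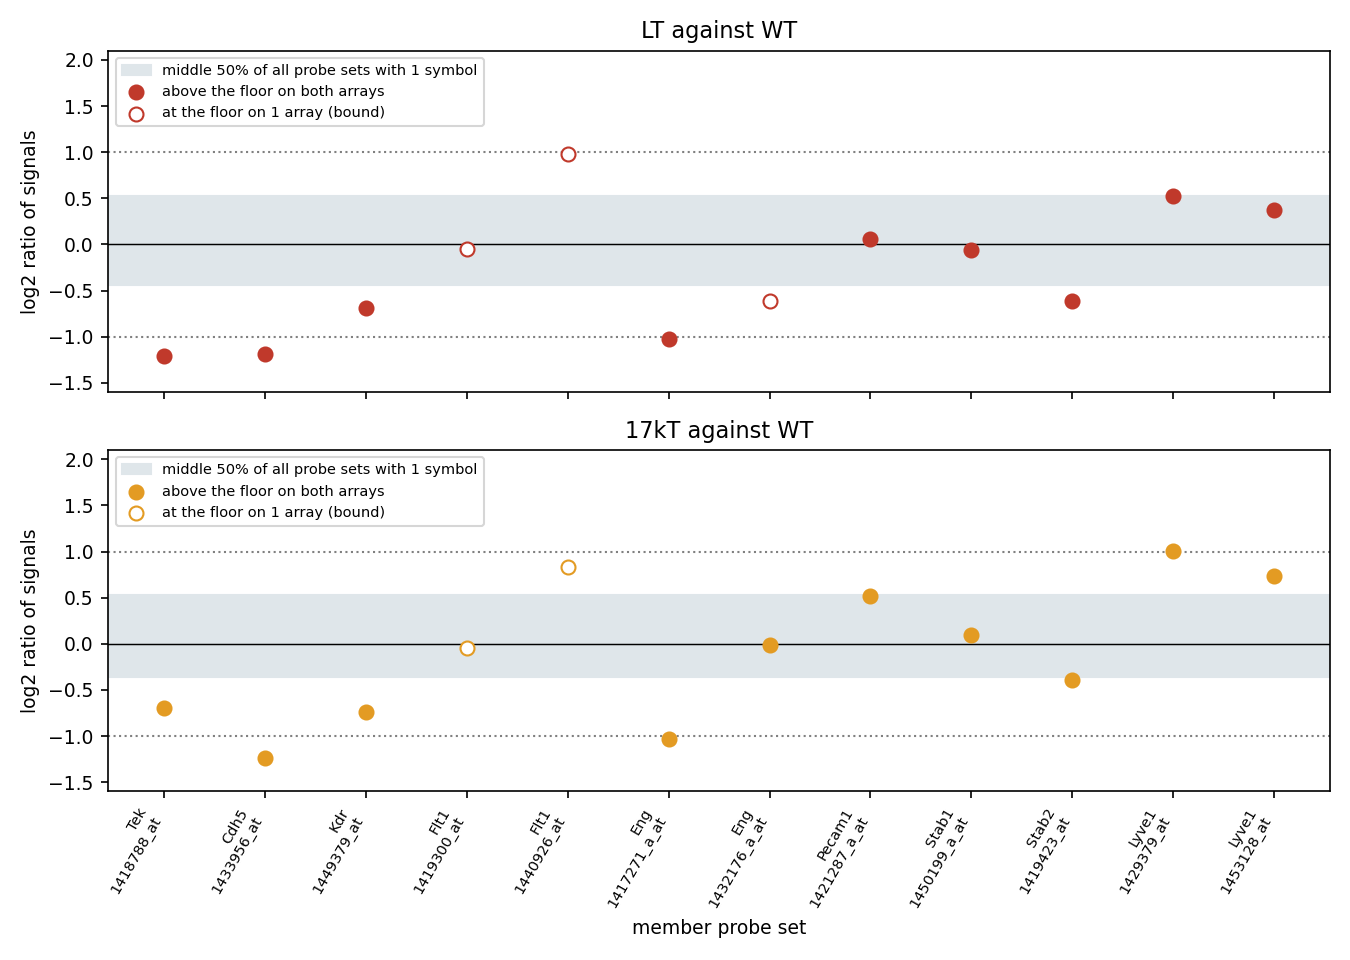
Log2 ratio of each member probe set in LT against WT and in 17kT against WT, with dotted lines at 2-fold, open points for bounds and the middle 50% of all probe sets shaded. Cdh5 and Eng lie past the lower line in both comparisons, at -1.18 and -1.02 in LT and at -1.24 and -1.03 in 17kT, and Lyve1 lies at 0.53 in LT and 1.01 in 17kT.

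Over the 12 measured probe sets the median log2 ratio was -0.34 in LT against WT, with a range of -1.21 to 0.98, against a median of 0.03 over all 20674 measured probe sets, whose middle 50% ran from -0.44 to 0.52. In 17kT against WT the median of the endothelial probe sets was -0.03, with a range of -1.24 to 1.01, against 0.08 over all 21203. On 430A alone, with 11 measured in each comparison, the endothelial median was -0.61 in LT and -0.04 in 17kT. The medians over all measured probe sets of 430A were 0.08 and 0.14. With 1 probe set per gene, the medians were -0.61 in LT and -0.39 in 17kT. The genes thus spread widely around their median, and Lyve1 and the 430B probe set of Flt1 lay above WT while Tek, Cdh5, Kdr, Eng and Stab2 lay below it.

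The size of these values moved with how the arrays were scaled. The signals as deposited count among the scalings and other settings below, but they nearly repeat the main scaling. Over 6 scalings the median of the endothelial probe sets ran from -0.53 to -0.24 in LT against WT, while the median of all probe sets ran from -0.25 to 0.39. In 17kT against WT it ran from -0.20 to 0.53, changing sign, while that of all probe sets ran from -0.04 to 0.46. Relative to all probe sets on the same scaling, the endothelial median was lower by 0.28 to 0.63 log2 units in LT, whereas in 17kT the difference ran from -0.20 to 0.07. Scaling to the hybridisation controls, which are bacterial and phage transcripts, gave the highest medians against WT and left none of the lower calls of Tek, Cdh5 or Eng past 2-fold. Under it Tek was at -0.84, Cdh5 at -0.81 and Eng at -0.65 in LT, and Cdh5 was at -0.52 and Eng at -0.31 in 17kT, where Stab2 changed sign to 0.33 and Tek to 0.02. In 17kT it also put Pecam1 at 1.05, past 2-fold, and Stab1 at 0.82. The brighter probe sets of Cdh5 and Eng kept a ratio below 0 in both transgenic livers under all 8 other settings, whereas the dimmer Eng probe set reached 0.71 in 17kT under the control scaling. Tek stayed below 0 in LT under all 7 that gave it a value.

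The share of all calls against WT that were higher moved as well. It was 56.3% in LT against WT, with 27.1% to 83.4% over the scalings, and 55.2% in 17kT against WT, with 44.6% to 84.6%. The background shares given above for the endothelial genes therefore belong to the scaling used there.

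**Figure D3:**
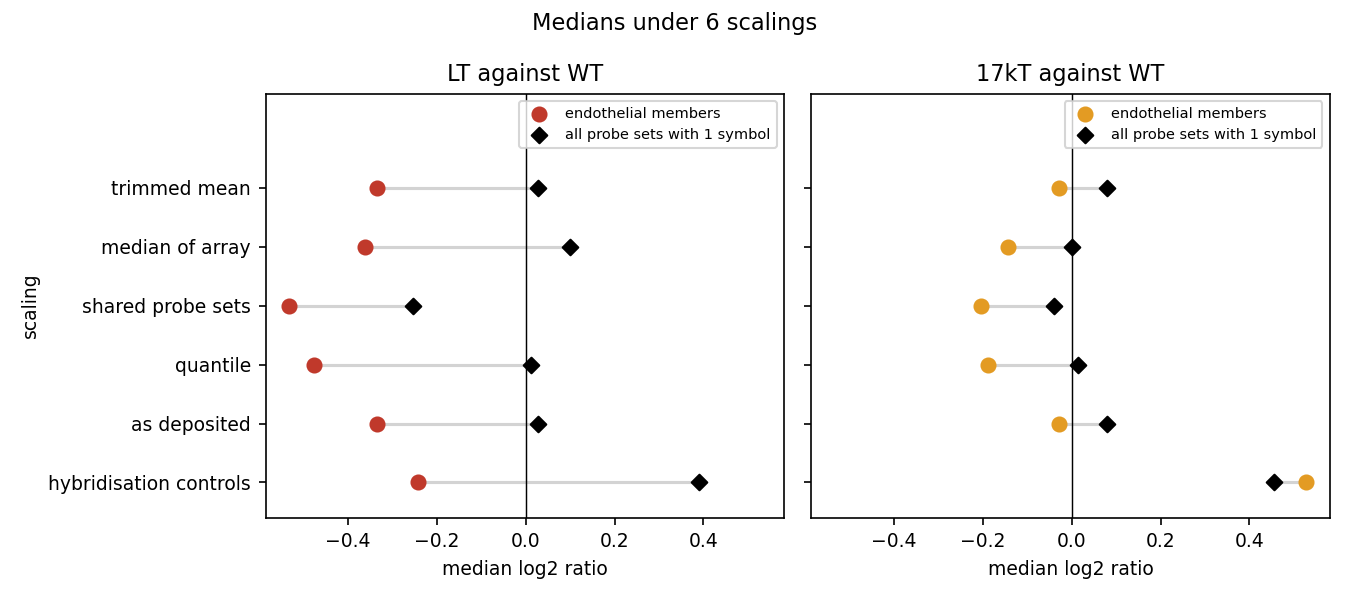
Median log2 ratio of the member probe sets and of all measured probe sets under each of 6 scalings, in LT against WT and 17kT against WT. In LT against WT the members lie below all probe sets under every scaling, by 0.28 to 0.63, and in 17kT against WT the difference runs from -0.20 to 0.07.

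In LT against 17kT the log2 ratio was 0.06 for Cdh5, 0.05 for Kdr and 0.01 for the brighter Eng probe set, while the dimmer Eng probe set gave -0.60 or lower. LT was also below 17kT for Tek (-0.51), the brighter Lyve1 probe set (-0.48), Pecam1 (-0.46), Stab2 (-0.22) and Stab1 (-0.16). None of these reached 2-fold. The median over 11 measured probe sets was -0.22, against -0.04 over all 20451. The comparisons of LT and of 17kT with WT share the WT arrays, so a low or high WT reading would enter both.

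Of 40 other pan-endothelial genes on the arrays, 27 were measured in LT against WT and 28 in 17kT against WT. Read from 1 probe set per gene, 0 were called higher or lower in either comparison. Other probe sets of Egfl7 and Mmrn2 did pass the rule. Those of Egfl7 gave -0.91, -1.02 and 0.01 in LT and -1.09 (a bound), -0.32 and -0.06 in 17kT. The Egfl7 probe set read gave 0.46 and 0.49. Those of Mmrn2 gave -0.996, -0.57 and -0.33 in LT and -0.37, 0.01 and -1.62 in 17kT. The Mmrn2 probe set read gave -0.57 and -0.65. With 1 probe set per gene, the rule called 11.1% of all genes higher and 9.01% lower in LT, and 9.97% higher and 8.64% lower in 17kT. In LT 20 of the 27 had a ratio below 0 and the median was -0.48, and in 17kT 18 of the 28 did and the median was -0.14, against 0.02 and 0.07 over all genes. Over the 6 scalings the LT median of this list ran from -0.73 to -0.10 and the 17kT median from -0.34 to 0.33. Vwf, the von Willebrand factor of larger vessels, was below the floor in all 3 livers, at 5.80 in LT, 26.0 in 17kT and 26.9 in WT.

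Of 29 genes of the sinusoid and its zones, 24 were measured in LT, with 1 called higher, 2 called lower and a median of -0.43. In 17kT 25 were measured, with 1 higher, 2 lower and a median of -0.10. Over the scalings these medians ran from -0.70 to -0.02 in LT and, changing sign, from -0.30 to 0.43 in 17kT. Other probe sets of Cd36 and Rspo3 also passed the rule. Another of Cd36 gave 1.61 in LT and 1.44 in 17kT, where the Cd36 probe set read gave 0.90 and 0.43. A further Cd36 probe set gave 0.35 (a bound) in 17kT. Another of Rspo3 gave -1.11 (a bound) in both, where the Rspo3 probe set read gave -0.42 and -0.39. Dnase1l3, a secreted nuclease, was 2.36-fold lower in LT, and Ehd3, a membrane-trafficking protein, was 2.33-fold lower, though its other probe set gave a log2 ratio of -0.44. In 17kT the basement membrane protein Ntn4 was 2.70-fold lower and the transcription factor Maf 2.65-fold lower, with other Maf probe sets between -0.44 and 0.34. Icam1, a leukocyte adhesion protein made by several liver cell types, was 2.51-fold higher in both. Clec4g, a lectin of sinusoidal endothelium, had 1161 in LT and 1658 in 17kT, against 1668 in WT. The Fc receptor Fcgr2b had 753 in LT and 786 in 17kT, against 520 in WT. Clec4g was thus level with WT in 17kT, and Fcgr2b lay above WT in both.

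Of 34 genes of VEGF, angiopoietin and BMP9 signalling, which act through Kdr, Flt1, Tek and Eng, 28 were measured in LT, with 3 called higher, 0 lower and a median of 0.33. In 17kT 27 were measured, with 3 higher, 1 lower and a median of 0.23. Over the scalings these medians ran from -0.06 to 0.69 in LT, changing sign, and from 0.09 to 0.91 in 17kT. Other probe sets of Nrp1 and Nrp2 also passed the rule in 17kT. Another of Nrp1 gave -1.05, where the Nrp1 probe set read gave -0.95 and the others -0.26 (a bound) and -0.26. Another of Nrp2 gave 1.24 (a bound), where the Nrp2 probe set read gave -0.59 and a further one 0.39. Vegfa, the ligand of Kdr and Flt1, had 276 in LT and 217 in 17kT, against 450 in WT, and was called lower in 17kT at a log2 ratio of -1.05 (-0.70 in LT). Gdf2 (BMP9), a ligand sensed with the help of Eng, had 189 in LT and 311 in 17kT, against 225 in WT. The Tek ligands were read on 430B. Angpt1 had 186 in LT and 59.4 in 17kT, against 29.0 in WT, and Angpt2 had 86.0 in LT and 278 in 17kT, against 32.7 in WT, so each was above the floor of 140.5 in 1 transgenic liver only. Id1, a common target of BMP receptors that many cell types make, was at least 2.93-fold higher in LT and at least 3.95-fold higher in 17kT. The inhibitory mediator Smad7 was at least 2.34-fold higher in LT and at least 3.37-fold higher in 17kT. Smad5, a mediator of BMP signals, was 2.35-fold higher in LT, where another of its probe sets gave -0.37. Id2, a relative of Id1, was 2.72-fold higher in 17kT, where another of its probe sets gave 0.65.

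Markers of other liver cells differed between the livers beside the endothelial genes, and their part in the values above was not tested. All 20 Kupffer cell and macrophage markers were measured, with summed signals of 19583 in LT and 22134 in 17kT, against 20660 in WT. Of these 0 were higher and 1 (C1qc, 2.28-fold) lower in LT, and 1 (Mpeg1, 2.74-fold) higher and 1 (Timd4, at a log2 ratio of -1.10) lower in 17kT. Their median was -0.19 in LT and 0.18 in 17kT, with -0.44 to 0.18 and -0.02 to 0.90 over the scalings. Stab1, Pecam1 and Lyve1 can also be made by macrophages. The Kupffer cell lectin Clec4f had 1926 in LT and 2342 in 17kT, against 2144 in WT. Of 20 stellate cell and matrix markers, 16 were measured in LT, with 1 higher and 2 lower and summed signals of 9311 against 12379 in WT. In 17kT 17 were measured, with 1 higher and 1 lower and a sum of 12405 against 12390 in WT. The pericyte gene Rgs5 was 2.68-fold lower and the retinoid enzyme Lrat lower by a log2 ratio of -1.13 in LT, where Vim was higher at 1.04. In 17kT the stellate cell factor Hand2 was at least 3.08-fold higher and Acta2 lower at -1.10. The list median was -0.29 in LT and -0.09 in 17kT, with -0.52 to 0.01 and -0.30 to 0.32 over the scalings. Of 7 lymphatic markers on the arrays, which bear on Lyve1, 5 were measured in each comparison, with 1 higher in LT (Prox1, 2.38-fold, a gene hepatocytes also make) and 0 called in 17kT, and Pdpn was below the floor in all 3 livers. Of 8 platelet markers on the arrays, which bear on Pecam1, 5 were measured in LT and 6 in 17kT and 0 were called in either, with medians of -0.50 in LT and 0.10 in 17kT. Over the scalings these ran from -0.72 to -0.13 in LT and, changing sign, from -0.08 to 0.64 in 17kT.

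Hepatocyte and division genes give a sense of scale for the endothelial values. On this scaling all 15 hepatocyte markers on the arrays were below WT in both transgenic livers, 4 of them called in LT and 7 in 17kT, with medians of -0.79 and -0.81. Cyp2e1 was 30.2-fold lower in LT and Apoa2 16.3-fold lower in 17kT. Of 19 division genes 18 were called higher in each, with medians of 2.90 in LT and 3.19 in 17kT. Bub1b was at least 17.4-fold higher in LT and Top2a 19.8-fold higher in 17kT. Among the 9 endothelial genes, with bounds taken at their floored value, the ratios largest in size were -1.21 for Tek in LT and -1.24 for Cdh5 in 17kT. Both were smaller in size than the median division gene.

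In LT against 17kT the same lists held few calls. Among pan-endothelial genes 0 of 25 were called, and among sinusoid genes 1 of 25, Ntn4, which was 2.74-fold higher in LT. Another probe set of Mmrn2 gave 1.29, where the one read gave 0.08 and the others -0.63 and -0.58. Another of Plxnc1 gave -1.25, where the one read gave -0.77. Among signalling genes Nrp2, a co-receptor for VEGF family ligands, was 2.14-fold higher in LT, but its other measured probe sets gave log2 ratios of -0.51 and -0.35. Id2 was 2.03-fold lower in LT, of 29 genes measured. The rule called 4.47% of all genes higher and 4.23% lower. Beside them the macrophage receptor Msr1 was 2.41-fold lower and Hand2 2.72-fold lower in LT, while Prox1 was 2.17-fold and the division gene Bub1 2.09-fold higher, and Apoa2 was higher by 1.93 on the log2 scale.

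**Figure D4:**
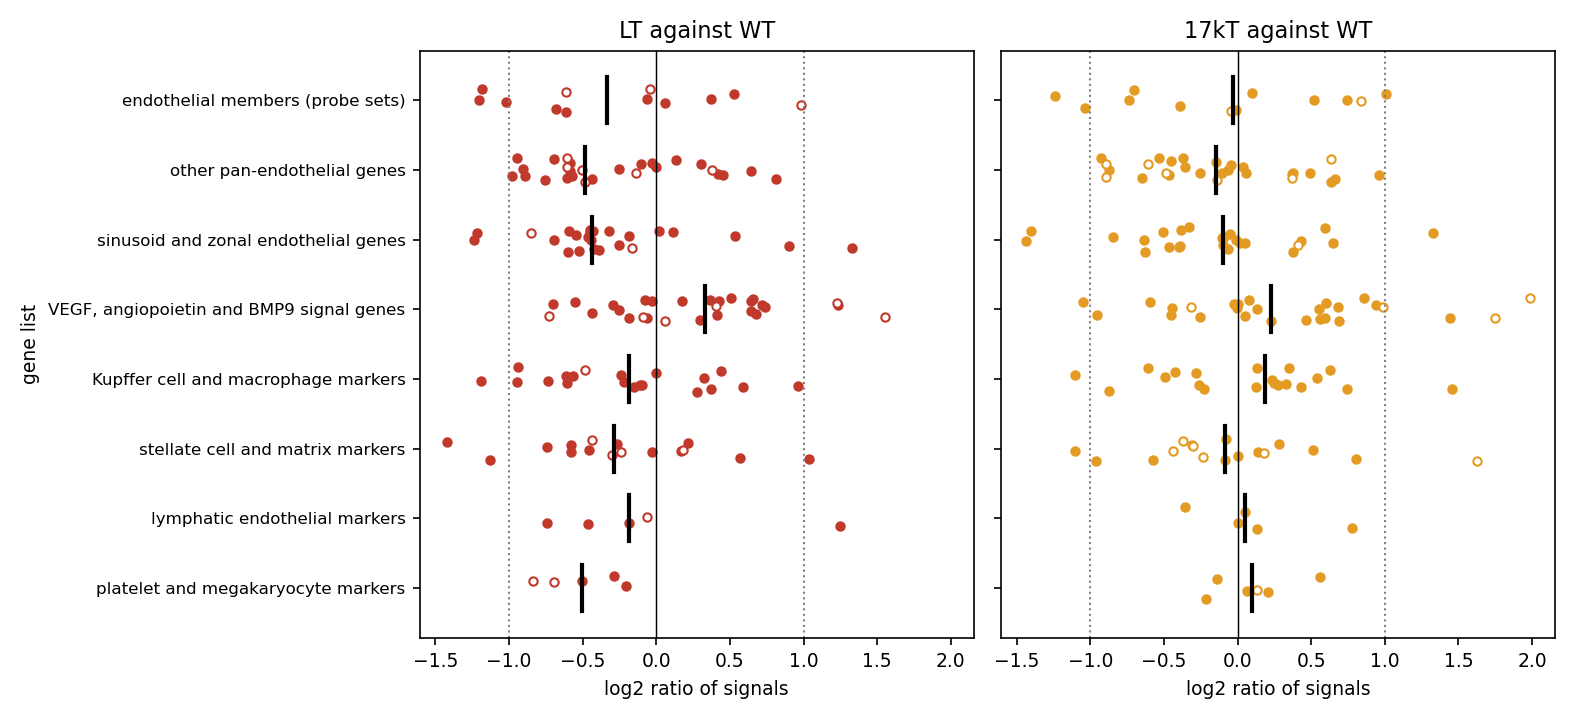
Log2 ratio of each measured gene (1 point each, by probe set for the endothelial members) in 8 groups of genes, LT against WT at left and 17kT against WT at right. Open points are bounds, thick bars are medians and dotted lines mark 2-fold. The pan-endothelial median lies at -0.48 in LT and -0.14 in 17kT, and that of the signalling genes at 0.33 in LT and 0.23 in 17kT.

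The 9 endothelial probe sets of 430A above the floor in all 3 livers, from 8 genes, had a median pair of log2 ratios of -0.61 in LT and -0.39 in 17kT, which is the pair of Stab2 itself. The other members spread widely around it, so closeness to this pair is closeness to Stab2. Of 6298 other genes of that design above the floor in all 3 livers, 298 (4.73%) lay within 0.25 log2 units of this pair. The nearest by Euclidean distance over these 2 ratios were Nr1h3, Trip4, Pts, Zfyve21 and Msn.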

How the data were processed

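Liver RNA was measured on 6 arrays, 1 per genotype and design. The authors deposited 1 linear signal intensity for each probe set. Per the submitters' processing notes these came from MAS5, of unstated version. The authors had scaled them, since every array had a 2% trimmed mean of 250.03 to 250.12. The 17kT values have up to 6 decimals and the others 1. The deposited settings files hold other entries, and the fluidics station was read per the file headers.

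Gene symbols came from the platform annotation, and chromosomes came from the RefSeq table of GRCm38.p6. On 430A 20393 of 22690 probe sets had 1 symbol, 691 several and 1606 none. On 430B these were 14674 of 22575, 245 and 7656. A symbol listed under more than 1 gene identifier counted as several. Only probe sets with 1 symbol were used.

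Within a design, arrays were brought to the same 2% trimmed mean and floored at the design's median, and log2 ratios were taken within a design. The rule was 2-fold or more. Each gene outside the members was read from its brightest probe set relative to the floor, with _x_at probe sets used only where no other existed. Of 197 list entries in 9 lists, 192 were on the arrays. Members and lists were chosen with earlier results of these data known. Genes named from the lists were, per comparison, up to 3 called genes with the largest ratios in each endothelial or signalling list and 1 in each other list; Vegfa, Angpt1, Angpt2, Gdf2, Vwf, Clec4g and Fcgr2b; and the 5 genes nearest to the members' median pair. Alb, Clec4f, Pdpn, Timd4, Lrat, Vim and Acta2 were added after their values were seen. Egfl7, Mmrn2, Plxnc1, Cd36, Rspo3 and Nrp1 were named because a probe set other than the one read passed the rule. Alternatives were other scalings, floors, a 3-fold rule and choices of probe set and design. The calculation was tested on simulated data. The number of arrays limits the precision. Python 3.11.15, numpy 2.4.6, pandas 2.3.3 and matplotlib 3.10.9 were used.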

Additional observations from a re-analysis of the deposited data

Results flagged for a closer look

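Among the list genes named by the selection rule, 3 had ratios to WT of opposite sign in the LT and 17kT livers. Both ratios were larger in size than the technical SD of the same probe set, 0.23 in LT and 0.28 in 17kT. For none of the 3 were both larger than the SD between different probes of 1 gene, 0.51 and 0.49. List genes not named by that rule were left out of this selection. With 1 array each, the difference was not tested. Nrp2, a co-receptor for VEGF family ligands, had log2 ratios of 0.51 in LT and -0.59 in 17kT, and its other probe sets gave -0.12 and 0.88 in LT and 0.39 and 1.24 in 17kT. Gdf2, which encodes BMP9, had -0.26 in LT and 0.47 in 17kT. Msr1, a macrophage scavenger receptor, had -0.94 in LT and 0.33 in 17kT, and another of its probe sets gave 0.21 in LT and 0.53 in 17kT.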

How the results depend on the processing

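No paired analysis was possible because each genotype had 1 array per design. No endothelial probe set past the 2-fold rule changed sign under the other scalings and floors. Single list genes were not rerun one by one, and other probe sets of Smad5, Maf and Nrp2 had the opposite sign. Of the counts and medians of the endothelial probe sets and list counts, 100 stayed close to the value reported and 62 moved; for single probe sets and list medians these were 375 and 96. The list counts below pool the lists of endothelial and other cells' genes, where 6 were higher and 5 lower in LT against WT, 6 and 5 in 17kT against WT, and 4 and 5 in LT against 17kT. The cause of each shift was not tested.

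Scaling to the median gave 1 endothelial probe set higher in LT, 0 higher in 17kT and 10 list genes lower in 17kT. Scaling to the shared probe sets gave 0 higher in 17kT, and list counts of 3 higher and 15 lower in LT, 12 lower in 17kT, and 2 higher and 10 lower in LT against 17kT. Quantile normalization gave 1 higher in LT, 0 higher in 17kT, and 10 list genes lower in each. Scaling to the hybridisation controls gave 1 higher and 0 lower in LT, 3 higher and 0 lower in 17kT, medians of 0.53 in 17kT against WT and -0.54 in LT against 17kT, and list counts of 16 higher and 1 lower in LT, 31 and 2 in 17kT, and 17 lower in LT against 17kT.

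A floor at the 25th percentile gave 1 higher and a median of -0.61 in LT, and 3 higher in 17kT. It also put the Flt1 probe set 1419300_at past 2-fold lower in 17kT. Under this floor the list counts were 10 lower in LT, 13 higher and 11 lower in 17kT, and 10 and 13 in LT against 17kT. A floor at the 75th percentile gave 1 lower and a median of -0.67 in LT, 0 higher, 1 lower and -0.58 in 17kT, and list counts of 2 higher in LT, 2 and 2 in 17kT, and 1 and 2 in LT against 17kT. The floor as a pseudocount left 0 lower in LT and 0 in either direction in 17kT, and list counts of 3 and 3 in LT, 1 lower in 17kT, and 2 and 2 in LT against 17kT. The 3-fold rule left 0 lower in LT and 0 in either direction in 17kT. With 1 probe set per gene the medians were -0.61 in LT and -0.39 in 17kT. On 430A alone the LT median was -0.61. The 430B design alone holds 1 probe set, of Flt1, with 0 lower in LT, 0 called in 17kT, and values of 0.98, 0.84 and 0.14 in the 3 comparisons. Leaving out _x_at and _s_at probe sets removed none of the endothelial ones. Signals near or below the floor limit Flt1, Pecam1, Tek in LT, and the dimmer probe sets of Cdh5, Eng and Lyve1.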
